A study of Homo sapiens with 12 samples.

Results

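A set of 10 genes of the tumor necrosis factor (TNF) superfamily was followed by mRNA-seq in NB4 and Kasumi-1 cells incubated with OGP46, and the genes were taken by gene symbol from a table of 20003 genes. The 10 genes are the ligands TNF, TNFSF9, TNFSF10, TNFSF13 and TNFSF13B and the receptors TNFRSF1A, TNFRSF1B, TNFRSF10A, TNFRSF10B and TNFRSF21. All 10 symbols were found in all 12 samples. The samples fell into 4 groups of 3: NB4 cells with DMSO (control), NB4 cells with 1 µM OGP46, Kasumi-1 cells with DMSO (control) and Kasumi-1 cells with 1 µM OGP46, each incubated for 48 h. NB4 is an acute promyelocytic leukemia line that carries the PML-RARα fusion, Kasumi-1 is an acute myeloid leukemia line that carries the AML1-ETO fusion, and OGP46 is a diterpenoid derived from oridonin that was studied for its effect on leukemic cell differentiation. Each line is a single established cell line, so the comparisons hold for these lines and not for patients' cells.

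Ligands of the TNF superfamily are made as membrane proteins that work as trimers, on the cell surface or after a protease has cut them free. They bind receptors of the TNF receptor superfamily, some of which carry a death domain that can start caspase-dependent cell death, while most can also activate NF-κB through TRAF adaptors. In the myeloid lineage TNF is a classic product of activated monocytes and macrophages, and many NF-κB target genes, TNF itself among them, are induced by TNF.

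Levels are given as FPKM, mapped fragments scaled to exon length and to the size of the library, so that they may be set side by side between genes. Fold changes and standard errors (SE) are on the log2(FPKM + 0.1) scale, where low genes show less change than they have. To be called, a gene needed a limma p below 0.05 after Benjamini-Hochberg adjustment over all genes tested and a log2 fold change no smaller than 0.58 (1.49-fold) either way. The second fit added the sample number in the labels as a block (replicate block), because samples with the same number deviated together within each line. In NB4 this set sample 2 apart, but samples 1 and 3 also deviated together across numbers, so their pairing is not shown. The study describes its experiments, the mRNA-seq among them, as independently repeated, but no source ties the numbered samples of a group to separate cultures. The p-values thus measure the spread between these samples, which may be technical if they were not separate. As RNA came from whole cultures, fewer cells of a kind and less RNA per cell cannot be told apart.

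The number of sequenced fragments is unknown, and 9339 to 9746 genes per sample reached 1 FPKM. The line labels held: RUNX1T1, the ETO part of the Kasumi-1 fusion, lay between 8.17 and 9.66 FPKM in Kasumi-1 and was at most 0.0762 FPKM in NB4. The 5 markers of AML1-ETO leukemia summed to 0.398 to 1.13 FPKM in NB4 and 39.6 to 57.9 FPKM in Kasumi-1. The 4 markers of promyelocytic leukemia summed to 16.8 to 29.5 FPKM in NB4 and 12.3 to 18.9 FPKM in Kasumi-1 and did not set the lines apart as a list. Of these 4, only STAB1 was clearly higher in NB4 controls (means of 9.21 in NB4 and 0.332 FPKM in Kasumi-1). HGF (8.84 and 13.5 FPKM) and FGF13 (0 and 0.208 FPKM) were higher in Kasumi-1 controls, and PTGDS had means below 0.1 in both lines. The FPKM values of all genes summed to 248206.7 to 256267.9 in the NB4 controls and to 263340.7 to 291523.2 with OGP46, and across the 11750 genes tested in NB4 the log2 fold change had a median of 0.18. Rescaling brought that median to 0.06 (equal FPKM sums), −0.04 (equal medians) or −0.01 (quantile normalization). The NB4 control and the NB4 OGP46 sample numbered 2 both stood apart from the samples numbered 1 and 3, with lower TNF and lower NF-κB target genes. The markers of monocytes and macrophages summed to between 3.93 and 7.21 FPKM in the NB4 controls and between 10.9 and 28.6 FPKM with OGP46, while CD163, MARCO, MRC1 and VCAN, 4 of the 8 markers, had means below 0.1. Granulocyte markers summed to between 10.01 and 19.0 FPKM and between 17.2 and 31.7 FPKM, with FCGR3B and LTF, 2 of 6, below 0.1. T and NK cell markers, 4 of 5 of which were found, summed to between 47.8 and 70.4 FPKM and between 61.6 and 100.7 FPKM. Most of it was NKG7 (means of 44.2 FPKM in control and 58.1 FPKM with OGP46). CD3D was also present (means of 16.7 and 27.7 FPKM), while CD3E and CD2 had means below 0.1. In Kasumi-1 these sums were 0.860 to 2.37 and 1.04 to 2.19 FPKM for monocytes, 88.5 to 106.3 and 94.0 to 94.3 FPKM for granulocytes, and 1.30 to 3.88 and 1.27 to 1.46 FPKM for T and NK cells. Most of the Kasumi-1 granulocyte sum was CSF3R (means of 92.5 FPKM in control and 89.0 FPKM with OGP46), with FCGR3B, S100A8 and LTF, 3 of 6, below 0.1. Of the 8 monocyte markers, 7 had means below 0.1 there. B cell and erythroid marker sums did not pass 3.02 FPKM in any group. Fibroblast and epithelial markers summed to 3.36 to 7.67 FPKM in NB4 and 40.3 to 56.0 FPKM in Kasumi-1, most of it EPCAM, with the 3 collagen genes below 0.1. The part of these markers in the results was not tested.

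Before OGP46 the family differed sharply between the lines. In NB4 controls all 10 genes had a mean of at least 1 FPKM, while in Kasumi-1 controls 6 did, and TNFSF10, TNFSF13, TNF and TNFSF9 lay below it. Of the 10 genes, 9 passed the test between NB4 and Kasumi-1 controls, 6 higher in NB4 and 3 higher in Kasumi-1, beside 52.4% of the 12302 genes tested (22.7% higher in NB4 and 29.7% higher in Kasumi-1). The ranges of the control groups did not overlap for any of the 10 genes, beside 77.7% of all genes. Most genes thus differed between the lines, and the count in the family is to be read against that share.

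**Figure D1:**
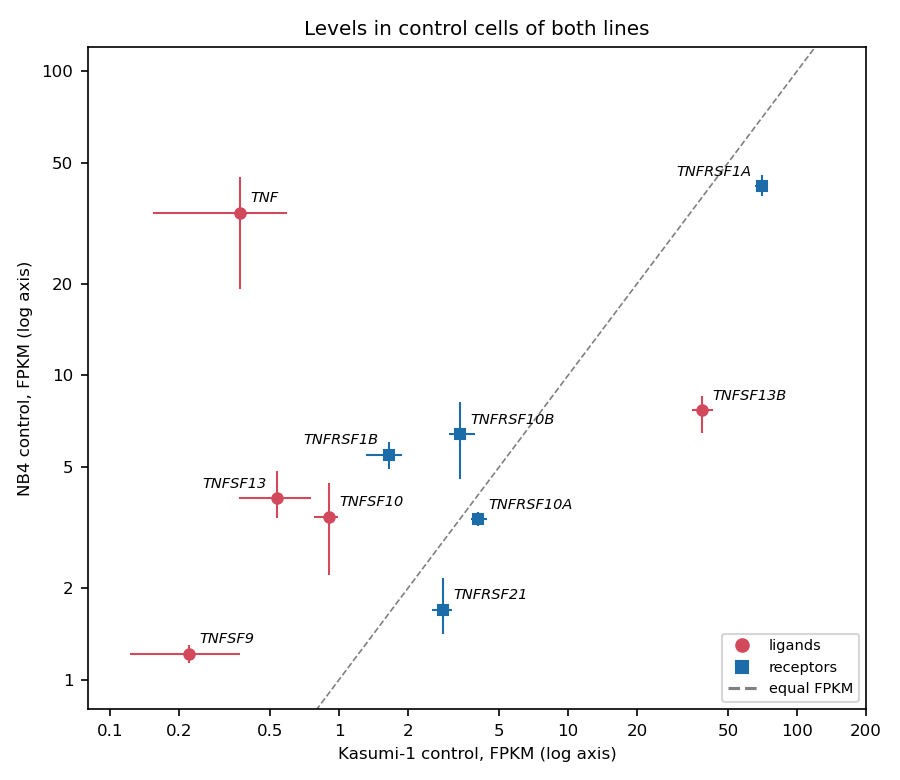
Mean FPKM of each gene in NB4 controls (vertical, log axis) against Kasumi-1 controls (horizontal, log axis), with 3 samples per line and lines from the lowest to the highest sample. TNF lies farthest from the line of equal FPKM, at 34.3 FPKM in NB4 and 0.368 FPKM in Kasumi-1, while TNFSF13B and TNFRSF1A lie on the Kasumi-1 side.

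TNF, the founding ligand and the agonist of TNFRSF1A and TNFRSF1B, showed the widest gap. It measured 44.8, 19.1 and 39.0 FPKM in NB4 control samples 1, 2 and 3 and 0.155, 0.592 and 0.357 FPKM in the Kasumi-1 controls. The ranges were far apart, and the log2 fold change was 6.22 (SE 0.39, limma adjusted p = 1.07e-06). The ratio of mean FPKM was 93.2, and its size rests on the low values of Kasumi-1.

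TNFSF9 (CD137 ligand), a costimulatory ligand for T cells, measured 1.30, 1.21 and 1.13 FPKM in NB4 controls and 0.171, 0.122 and 0.369 FPKM in Kasumi-1 controls. All NB4 values lay above all Kasumi-1 values, with a log2 fold change of 2.11 (SE 0.26, limma adjusted p = 8.42e-05). TNFSF10 (TRAIL), which triggers cell death through TNFRSF10A and TNFRSF10B, measured 4.43, 2.21 and 3.65 FPKM in NB4 and 0.991, 0.957 and 0.773 FPKM in Kasumi-1. It was higher in NB4 by 1.76 on the log2 scale (SE 0.23, limma adjusted p = 1.23e-04).

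The B cell survival ligands ran in opposite directions. TNFSF13 (APRIL) measured 3.61, 4.85 and 3.40 FPKM in NB4 controls and 0.478, 0.757 and 0.366 FPKM in Kasumi-1 controls, a log2 fold change of 2.71 (SE 0.23, limma adjusted p = 7.51e-06). TNFSF13B (BAFF) measured 8.02, 8.55 and 6.45 FPKM in NB4 and 37.4, 43.0 and 34.9 FPKM in Kasumi-1, a log2 fold change of −2.31 (SE 0.12, limma adjusted p = 3.44e-07). TNFSF13B was therefore the leading ligand in Kasumi-1 and TNF the leading ligand in NB4. The ratio of TNFSF13B to TNFSF13 was 1.96 ± 0.24 (SD, n = 3) in NB4 controls and 76.7 ± 19.2 (SD, n = 3) in Kasumi-1 controls, a description with no test of its own.

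Among the receptors the gaps were smaller. TNFRSF1A, the death domain receptor for TNF that most cell types carry, measured 38.9, 45.6 and 41.1 FPKM in NB4 controls and 65.2, 73.0 and 72.0 FPKM in Kasumi-1 controls. It was lower in NB4 by a log2 fold change of −0.74 (SE 0.08, limma adjusted p = 3.62e-05), although with equal FPKM sums the log2 fold change of −0.54 fell short of the minimum. TNFRSF1B, the TNF receptor without a death domain, measured 6.05, 4.91 and 5.48 FPKM in NB4 and 1.31, 1.88 and 1.77 FPKM in Kasumi-1 (log2 fold change 1.68, SE 0.15, limma adjusted p = 9.98e-06). Both lines thus had more TNFRSF1A than TNFRSF1B, with a ratio of 7.74 ± 1.44 in NB4 controls and 43.1 ± 5.92 in Kasumi-1 controls (SD, n = 3).

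Of the TRAIL receptors with a death domain, TNFRSF10B was higher in NB4 and TNFRSF10A was not called. TNFRSF10A measured 3.36, 3.55 and 3.20 FPKM in NB4 controls and 3.92, 4.41 and 3.75 FPKM in Kasumi-1 controls, and it was the only 1 of the 10 genes that was not called between the lines (log2 fold change −0.25, 95% interval −0.48 to −0.01, limma adjusted p = 0.0561). TNFRSF10B measured 8.15, 4.57 and 6.53 FPKM in NB4 and 3.13, 3.94 and 3.01 FPKM in Kasumi-1 (log2 fold change 0.89, SE 0.20, limma adjusted p = 0.00308). The ratio of TNFRSF10B to TNFRSF10A was above 1 in all 3 NB4 controls, at 2.43, 1.29 and 2.04, and below 1 in all 3 Kasumi-1 controls, at 0.799, 0.892 and 0.802. TNFRSF21, a death domain receptor known from neurons and lymphocytes, measured 2.16, 1.42 and 1.51 FPKM in NB4 and 3.12, 2.90 and 2.54 FPKM in Kasumi-1. Its log2 fold change was −0.74 (SE 0.17, limma adjusted p = 0.00344), and it fell short of the minimum with equal FPKM sums (−0.54), with quantile normalization (−0.47) and with a pseudocount of 1 (−0.52).

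In order of mean level, NB4 controls ran from TNFRSF1A (41.9 FPKM) and TNF (34.3 FPKM) through TNFSF13B, TNFRSF10B, TNFRSF1B, TNFSF13, TNFSF10, TNFRSF10A and TNFRSF21 to TNFSF9 (1.22 FPKM). Neighbours whose sample ranges overlapped were TNFRSF1A and TNF, TNFSF13B with TNFRSF10B, TNFRSF10B with TNFRSF1B, TNFSF13 with TNFSF10, and TNFSF10 with TNFRSF10A. Kasumi-1 controls ran from TNFRSF1A (70.1 FPKM) and TNFSF13B (38.4 FPKM) through TNFRSF10A, TNFRSF10B, TNFRSF21, TNFRSF1B, TNFSF10, TNFSF13 and TNF to TNFSF9 (0.221 FPKM). There the overlapping neighbours were TNFRSF10A with TNFRSF10B, TNFRSF10B with TNFRSF21, TNFSF13 with TNF, and TNF with TNFSF9.

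In the annotation (GENCODE release 29, GRCh38) the genes lie apart on several chromosomes. TNF is at chr6:31575567-31578336 on the plus strand, TNFSF9 at chr19:6530999-6535928 (plus), TNFSF10 at chr3:172505508-172523507 (minus), TNFSF13 at chr17:7558292-7561608 (plus) and TNFSF13B at chr13:108251240-108308484 (plus). TNFRSF1A is at chr12:6328757-6342114 (minus), TNFRSF1B at chr1:12167003-12209228 (plus) and TNFRSF21 at chr6:47231532-47309905 (minus), while TNFRSF10A and TNFRSF10B lie close to each other elsewhere. TNFSF13 shares exons with the read-through gene TNFSF12-TNFSF13, which was at most 0.0956 FPKM in any sample. TNFRSF10A and TNFRSF10B overlap genes on the other strand, among them TNFRSF10A-AS1 and RHOBTB2, and whether counting used the strand is not given in the sources used here.

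The 250 bases before the RefSeq start site (GRCh38.p14) were read for 8 of the 10 genes, all but TNFRSF10A and TNFRSF10B. The windows of TNF, TNFSF9 and TNFSF10 are shown because these 3 ligands were higher in all 3 NB4 pairs and passed the test in NB4 with the replicate block. Capitals mark the TATA box (TATAAA, plus strand), an interferon element (GAAA, any 2 bases and GAAA again, either strand) and an NRF2 element (TGACNNNGC, either strand). The gene models of TNFSF9 and TNFSF10 in GENCODE begin inside these windows. The windows are chr6:31575315-31575564 on the plus strand for TNF, chr19:6530776-6531025 on the plus strand for TNFSF9 and chr3:172523431-172523680 on the minus strand for TNFSF10, each written 5′ to 3′.
TNF: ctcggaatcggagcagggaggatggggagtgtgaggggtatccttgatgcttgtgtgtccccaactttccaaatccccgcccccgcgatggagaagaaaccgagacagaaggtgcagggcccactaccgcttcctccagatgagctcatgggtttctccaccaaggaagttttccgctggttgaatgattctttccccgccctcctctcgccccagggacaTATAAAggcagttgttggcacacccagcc
TNFSF9: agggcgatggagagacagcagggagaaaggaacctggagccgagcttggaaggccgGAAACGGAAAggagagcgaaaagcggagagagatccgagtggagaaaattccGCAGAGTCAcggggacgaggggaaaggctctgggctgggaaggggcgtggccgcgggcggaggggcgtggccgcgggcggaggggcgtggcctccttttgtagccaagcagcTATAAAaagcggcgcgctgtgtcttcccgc
TNFSF10: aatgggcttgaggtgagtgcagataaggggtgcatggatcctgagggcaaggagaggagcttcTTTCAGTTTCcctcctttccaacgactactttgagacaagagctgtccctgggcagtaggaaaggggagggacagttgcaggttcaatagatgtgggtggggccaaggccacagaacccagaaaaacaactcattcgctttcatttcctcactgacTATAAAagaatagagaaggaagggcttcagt
All 3 windows hold a TATA box, which begins at position −29 in TNF, −30 in TNFSF9 and −31 in TNFSF10 from the start site and which 6.8% of the 35116 RefSeq promoter windows hold. None of the other 5 genes with a window holds one, and TNFRSF10B, which also passed the test in NB4 with the block, had no window. The interferon element was found in TNFSF9, TNFSF10, TNFRSF1B and a second start site of TNFSF13B, beside 3.02% of all windows. The NRF2 element was found in TNFSF9 and TNFSF13B, beside 10.9% of all windows. The NF-κB consensus (either strand) was found at a second start site of TNFSF13, beside 9.96% of all windows, and the AP-1 site (TGANTCA) in none of the 8 genes, beside 6.57%. These are matches of letters in short windows and describe no binding.

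In NB4 cells incubated with OGP46, TNFSF9 rose 2.25-fold, and TNF, TNFSF10 and TNFRSF10B were higher by 1.58- to 1.69-fold. Without the replicate block 1 of the 10 genes was called, TNFSF9, beside 1.56% of the 11750 genes tested (170 higher and 13 lower). With the replicate block 4 of the 10 were called, all higher (TNF, TNFSF9, TNFSF10 and TNFRSF10B), beside 5.06% of genes called higher and 6.21% called in either direction. The median log2 fold change of the 10 genes was 0.32 beside 0.18 for all genes tested, and 7 of the 10 lay above the latter. OGP46 exceeded control in all 3 same-numbered pairs for 8 of the 10 genes, beside 52.9% of all genes. For 3 of the 10, TNFSF9, TNFRSF10A and TNFRSF10B, the OGP46 group lay wholly above the controls, a share near the 32.7% of all genes.

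**Figure D2:**
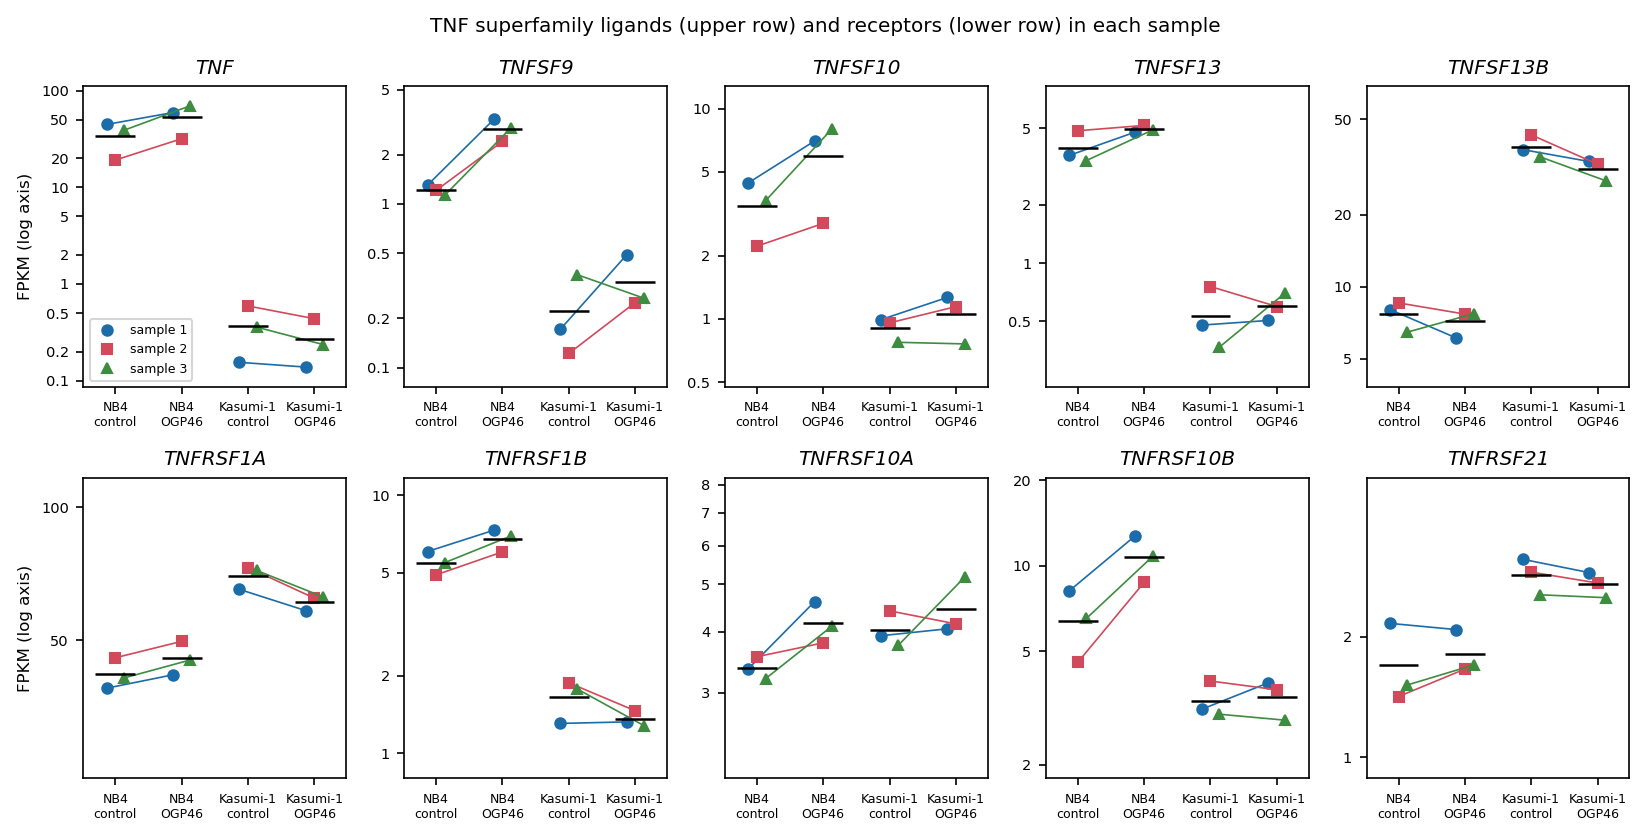
FPKM of the 5 ligands (upper row) and 5 receptors (lower row) in each of 12 samples on log axes, with marker shapes for sample numbers, lines joining same-numbered samples of a line and black bars for the group means (n = 3). In NB4 the lines of TNF, TNFSF9, TNFSF10 and TNFRSF10B all point up, and sample 2 lies lowest for TNF, TNFSF10 and TNFRSF10B in both groups.

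The study had listed TNFSF9 among the NB4 genes of the cytokine–cytokine receptor interaction pathway, from these same data. Here TNFSF9 went from 1.30, 1.21 and 1.13 FPKM in control samples 1, 2 and 3 to 3.29, 2.41 and 2.92 FPKM with OGP46. The groups did not overlap, and every pair moved by at least 0.94 on the log2 scale. The log2 fold change was 1.17 (SE 0.15, limma adjusted p = 0.0226) and with the replicate block the adjusted p was 1.56e-04. It kept its call with the block under median centring (0.95, limma adjusted p = 0.00524), the only 1 of the 10 called in that fit beside 1.6% of genes called higher, whereas without the block it lost the call under all 3 rescalings, which brought it to 0.95 to 1.05. Without the block it also lost the call when any 1 sample other than NB4 OGP46 sample 2 was left out, at 1.07 to 1.22 with limma adjusted p-values up to 0.134, and 0 to 2 genes in all were then called.

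TNF measured 44.8, 19.1 and 39.0 FPKM in the controls and 59.5, 31.9 and 69.9 FPKM with OGP46. Sample 2 was the lowest of each group and the groups overlapped, yet each pair went up, by 0.41, 0.73 and 0.84 on the log2 scale. The log2 fold change was 0.66, with an SE of 0.36 and a limma adjusted p of 0.251 without the block and an SE of 0.09 and an adjusted p of 8.80e-04 with it. With the block and median centring it was 0.44 (limma adjusted p = 0.00690), below the fold minimum. Leaving out 1 sample without the block moved it to 0.29 (without control sample 2), 0.43 (without OGP46 sample 3) and up to 1.00 (without OGP46 sample 2), and it was called in none of these fits.

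TNFSF10 measured 4.43, 2.21 and 3.65 FPKM in the controls and 7.02, 2.85 and 8.01 FPKM with OGP46. Here too sample 2 was the lowest of each group, and its OGP46 value lay below 2 of the controls. The log2 fold change was 0.70, with a limma adjusted p of 0.253 without the block (SE 0.39) and 0.00436 with it (SE 0.13), and 0.48 with block and median centring (limma adjusted p = 0.0430), below the fold minimum. Without the block it was 0.43 without control sample 2 and also without OGP46 sample 3, and 1.16 without OGP46 sample 2, where alone among these fits it was called (limma adjusted p = 0.0404).

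TNFRSF10B, the receptor for TNFSF10 with the higher level in NB4, measured 8.15, 4.57 and 6.53 FPKM in the controls and 12.8, 8.74 and 10.8 FPKM with OGP46. Every OGP46 sample lay above every control sample. The log2 fold change was 0.76, with a limma adjusted p of 0.0814 without the block (SE 0.21) and 4.40e-04 with it (SE 0.10), and 0.54 with block and median centring (limma adjusted p = 0.00774), just under the fold minimum. Leaving out 1 sample without the block gave 0.54 to 0.95, with a call only without OGP46 sample 2 (0.90, limma adjusted p = 0.0493). The mean ratio of TNFRSF10B to TNFRSF10A was 1.92 ± 0.58 in the controls and 2.57 ± 0.24 with OGP46 (SD, n = 3), and these ratios overlapped between the groups.

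The remaining NB4 values did not pass. TNFSF13 measured 3.61, 4.85 and 3.40 FPKM in the controls and 4.78, 5.16 and 4.89 FPKM with OGP46, with a log2 fold change of 0.33 (SE 0.14, limma adjusted p = 0.163). TNFRSF1B measured 6.05, 4.91 and 5.48 FPKM and 7.32, 6.03 and 6.96 FPKM, with a log2 fold change of 0.30 (SE 0.12, limma adjusted p = 0.141). With the block their adjusted p-values were 0.0488 and 0.0395, so that the fold minimum kept them out. TNFRSF10A measured 3.36, 3.55 and 3.20 FPKM and 4.61, 3.79 and 4.10 FPKM, without overlap between the groups, with a log2 fold change of 0.30 (SE 0.11, limma adjusted p = 0.133, and 0.0694 with the block).

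TNFSF13B, TNFRSF1A and TNFRSF21 lay near their control levels. TNFSF13B measured 8.02, 8.55 and 6.45 FPKM in the controls and 6.10, 7.67 and 7.70 FPKM with OGP46, and its pairs moved both ways (log2 fold change −0.10, 95% interval −0.42 to 0.22, limma adjusted p = 0.652). TNFRSF1A measured 38.9, 45.6 and 41.1 FPKM and 41.8, 49.7 and 45.1 FPKM (log2 fold change 0.12, 95% interval −0.10 to 0.34, limma adjusted p = 0.409), and its sign turned under all 3 rescalings. TNFRSF21 measured 2.16, 1.42 and 1.51 FPKM and 2.08, 1.66 and 1.70 FPKM (log2 fold change 0.11, 95% interval −0.31 to 0.52, limma adjusted p = 0.706), with a sign that also turned under rescaling.

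**Figure D3:**
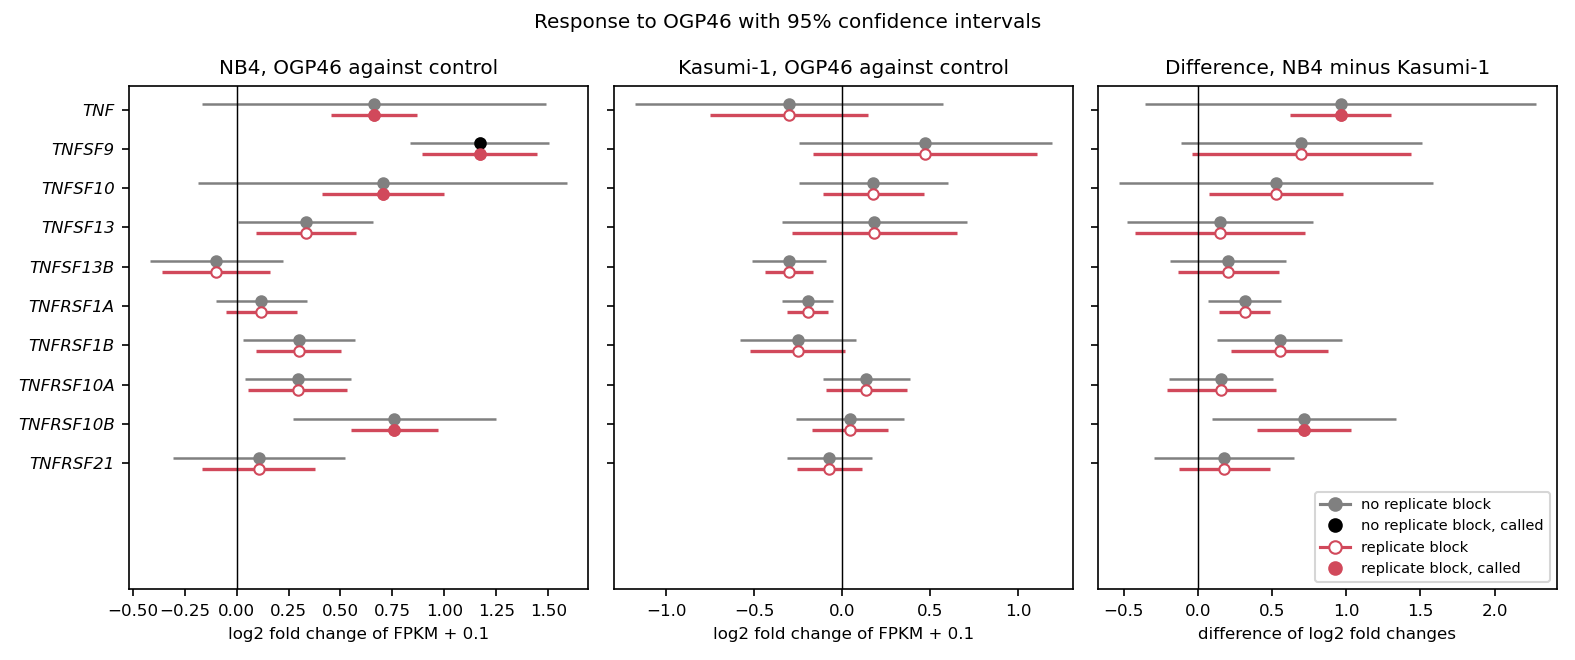
Log2 fold changes of the 10 genes by OGP46 in NB4 and in Kasumi-1 and the difference between the lines, with 95% confidence intervals from limma (3 samples per group), in grey without and in red with the replicate block and filled black or red where called. The block narrows the interval of TNF in NB4 from −0.17 to 1.49 down to 0.46 to 0.87, while TNFSF9 stands clear of 0 in both fits.

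The spread of TNF in NB4 followed the sample number. Sample 2 lay below the mean of samples 1 and 3 on the log2(FPKM + 0.1) scale by −1.12 in control and −1.01 with OGP46 for TNF, by −0.83 and −1.37 for TNFSF10 and by −0.66 and −0.42 for TNFRSF10B. For TNFSF9 these differences were −0.00 and −0.35, and for TNFRSF1A 0.19 and 0.20. The same samples were low in a list of 14 genes induced by TNF, of which 13 were tested in NB4: sample 2 was the lowest of its group for 11 of the 13 in control and in OGP46, beside 34.1% and 35.2% of all genes tested. The median difference of that list was −1.53 in control and −1.29 with OGP46, beside 0.00 and −0.00 for all genes. CXCL8, a neutrophil chemokine, differed by −2.18 and −1.98, and NFKB2, a subunit of NF-κB, by −1.95 and −1.83.

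Without both samples numbered 2, a choice made after seeing the data, 4 of the 10 genes were called in NB4, beside 4.61% of the 11766 genes tested. They were the genes that the block called: TNF at 0.63 (limma adjusted p = 0.0105), TNFSF9 at 1.28 (limma adjusted p = 4.97e-04), TNFSF10 at 0.88 (limma adjusted p = 0.00302) and TNFRSF10B at 0.68 (limma adjusted p = 0.0132). That fit rests on 2 samples per group.

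**Figure D4:**
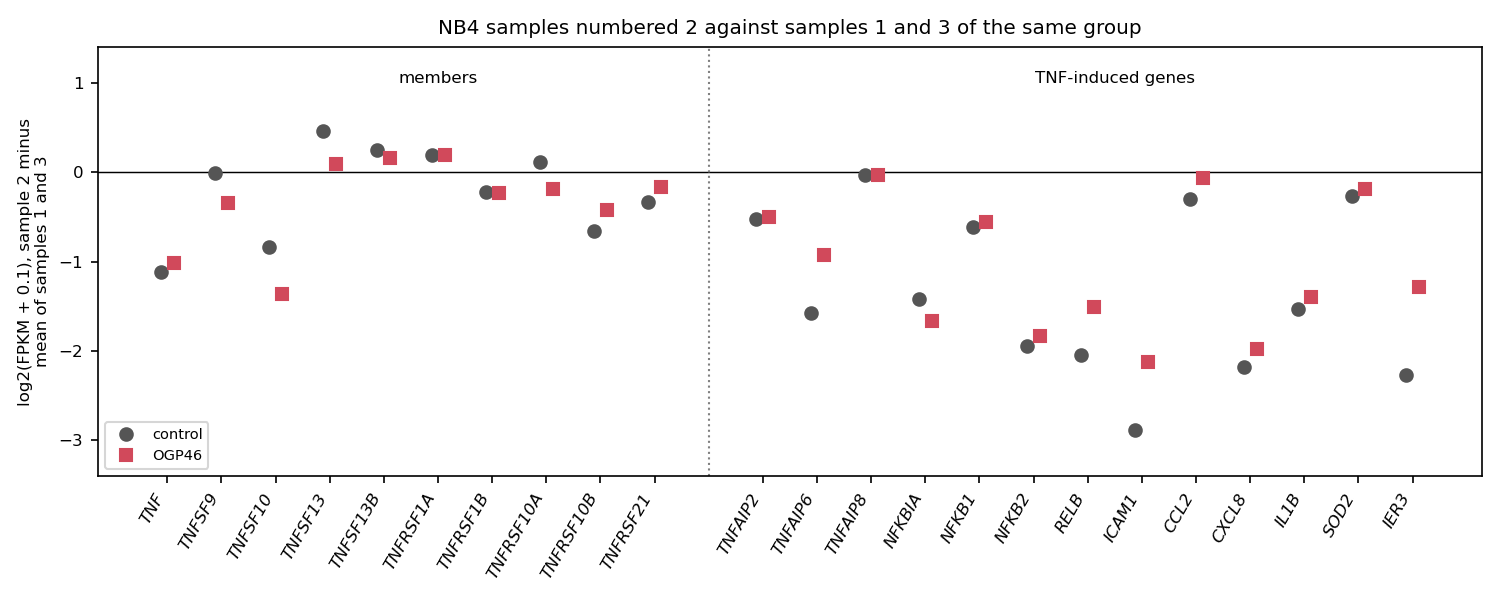
Log2(FPKM + 0.1) of the NB4 sample numbered 2 minus the mean of samples 1 and 3 of the same group, for the 10 genes (left) and the 13 tested TNF-induced genes (right), with circles for control and squares for OGP46. TNF lies at −1.12 and −1.01 and most TNF-induced genes lie lower in both groups, while TNFRSF1A and TNFSF13B lie above 0.

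In Kasumi-1 cells incubated with OGP46 none of the 10 genes was called, without the block beside 0.0338% of the 11835 genes tested (4 genes) and with the block beside 0.617% (73 genes). At an unadjusted limma p below 0.05, 2 of the 10 passed in either fit, TNFSF13B and TNFRSF1A, both lower, a share near that of all genes (15.6% without and 22.9% with the block). The median log2 fold change was −0.01 beside 0.05 for all genes, with 5 genes above 0 and 5 below. OGP46 was lower than control in all 3 pairs for TNF, TNFSF13B, TNFRSF1A and TNFRSF21, 4 of the 10, beside 13.8% of all genes.

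The leading ligand and the leading receptor of Kasumi-1 had the lowest p-values. TNFSF13B measured 37.4, 43.0 and 34.9 FPKM in the controls and 33.3, 32.4 and 27.6 FPKM with OGP46, so that the groups did not overlap, with a log2 fold change of −0.30 (SE 0.09, limma adjusted p = 0.179). TNFRSF1A measured 65.2, 73.0 and 72.0 FPKM and 58.4, 62.3 and 62.7 FPKM, again without overlap, with a log2 fold change of −0.20 (SE 0.06, limma adjusted p = 0.197). These 2 of the 10 lay wholly below the controls, beside 5.23% of all genes. With the block the adjusted p was 0.0344 for TNFSF13B and 0.0717 for TNFRSF1A, and with block and median centring 0.00435 and 0.00748, at log2 fold changes of −0.37 and −0.26 that stayed under the fold minimum.

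The low ligands of Kasumi-1 stayed low. TNF measured 0.155, 0.592 and 0.357 FPKM in the controls and 0.138, 0.437 and 0.236 FPKM with OGP46 (log2 fold change −0.30, 95% interval −1.18 to 0.58, limma adjusted p = 0.743). TNFSF9 measured 0.171, 0.122 and 0.369 FPKM and 0.488, 0.250 and 0.266 FPKM (log2 fold change 0.47, 95% interval −0.25 to 1.19, limma adjusted p = 0.499). Without the block the interval of TNFSF9 holds the change of 1.17 found in NB4, and with it the interval of −0.16 to 1.11 ends just below. The interval of TNF ends below the 0.66 found in NB4, both without the block and with it (−0.75 to 0.15). Without the block the NB4 interval of TNF, −0.17 to 1.49, overlaps that of Kasumi-1, and the difference itself is tested below. TNFSF10 measured 0.991, 0.957 and 0.773 FPKM and 1.26, 1.14 and 0.760 FPKM (limma adjusted p = 0.680), and TNFSF13 measured 0.478, 0.757 and 0.366 FPKM and 0.505, 0.596 and 0.703 FPKM (limma adjusted p = 0.739).

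The other receptors of Kasumi-1 overlapped between the groups. TNFRSF1B measured 1.31, 1.88 and 1.77 FPKM in the controls and 1.33, 1.46 and 1.28 FPKM with OGP46 (log2 fold change −0.25, SE 0.15, limma adjusted p = 0.429). TNFRSF10A measured 3.92, 4.41 and 3.75 FPKM and 4.05, 4.15 and 5.17 FPKM (log2 fold change 0.14, SE 0.11, limma adjusted p = 0.573). TNFRSF10B measured 3.13, 3.94 and 3.01 FPKM and 3.88, 3.67 and 2.87 FPKM, with a log2 fold change of 0.04. Its 95% interval of −0.26 to 0.35 does not reach the 0.76 found in NB4 but overlaps the NB4 interval of 0.27 to 1.25. TNFRSF21 measured 3.12, 2.90 and 2.54 FPKM and 2.89, 2.72 and 2.50 FPKM (log2 fold change −0.07, SE 0.11, limma adjusted p = 0.775).

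Whether the response differed between the lines was tested as the interaction of line and OGP46. The difference of log2 fold changes, NB4 minus Kasumi-1, was above 0 for all 10 genes, with a median of 0.42 beside 0.12 for all 12309 genes tested. With median centring 9 of the 10 and with quantile normalization 8 of the 10 stayed above 0. Without the block no gene of any kind was called (0.0%) by limma, although 1348 genes (10.95%) and 3 of the 10, TNFRSF1A, TNFRSF1B and TNFRSF10B, had an unadjusted p below 0.05. With the block, 2 of the 10 were called, beside 1.5% of all genes.

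These 2 genes were TNF and TNFRSF10B. For TNF the log2 fold change was 0.66 in NB4 and −0.30 in Kasumi-1, a difference of 0.96 (limma adjusted p = 0.567 without the block and 0.0209 with it). All NB4 pairs of TNF went up and all Kasumi-1 pairs went down, but in Kasumi-1 at levels below 0.6 FPKM. For TNFRSF10B the log2 fold changes were 0.76 and 0.04, a difference of 0.72 (limma adjusted p = 0.395 without the block and 0.0358 with it). With the block and median centring TNF kept its call at 0.81 (limma adjusted p = 0.0308), beside 0.658% of all genes called, and TNFRSF10B was at 0.57 (limma adjusted p = 0.0759). TNFSF9, the gene called in NB4 by both fits, differed by 0.70 with a 95% interval of −0.12 to 1.51 (limma adjusted p = 0.508, and 0.303 with the block), so a difference between the lines was not shown for it.

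Other ligands and receptors of the superfamily were mostly low or not called. Of the 13 other ligands, 5 were tested in NB4 and 3 in Kasumi-1. None was called without the block, beside 1.56% of all genes in NB4 and 0.0338% in Kasumi-1. With the block LTB (lymphotoxin beta) was called in NB4, beside 5.06% of all genes called higher. LTB measured 14.4, 1.98 and 16.8 FPKM in NB4 controls and 29.8, 7.82 and 29.6 FPKM with OGP46, with sample 2 again the lowest and a log2 fold change of 1.26 (limma adjusted p = 0.319 without the block and 5.10e-04 with it). Of the 24 other receptors, 13 were tested in NB4. Without the block 2 were called higher, beside 1.56% of all genes called in either direction, and with it 3, beside 5.06% called higher. None of the 9 tested in Kasumi-1 was called, beside 0.0338% of all genes without the block and 0.617% with it. The median log2 fold change of these receptors in NB4 was 0.46 beside 0.18 for all genes.

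TNFRSF12A, the receptor for TWEAK, and TNFRSF10C, a TRAIL decoy receptor that lacks a death domain, were called in both fits. TNFRSF12A measured 7.08, 4.38 and 5.45 FPKM in NB4 controls and 10.7, 9.25 and 9.42 FPKM with OGP46 (log2 fold change 0.81, SE 0.17, limma adjusted p = 0.0464). TNFRSF10C measured 0.983, 1.07 and 0.963 FPKM and 1.91, 2.53 and 1.85 FPKM (log2 fold change 0.98, SE 0.15, limma adjusted p = 0.0335). In both genes all OGP46 samples lay above all controls. TNFRSF25, a death domain receptor, was called with the block (log2 fold change 0.73, limma adjusted p = 0.255 and 0.00210). With block and median centring it was at 0.51 (limma adjusted p = 0.0218), below the fold minimum. TNFRSF10B, a death receptor of TNFSF10, was called higher with the block but not without it, nor with block and median centring. TNFRSF10D, another decoy receptor of TNFSF10, was not called in NB4 (log2 fold change 0.34, limma adjusted p = 0.260 without the block and 0.0398 with it).

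Calls among the relays inside the cell are to be read against those of all genes. In NB4 1.56% of all genes were called without the block and 6.21% with it, and in Kasumi-1 0.0338% and 0.617%. None of the 18 adaptors and kinases next to the receptors, all tested in NB4 and 17 in Kasumi-1, was called in either line by either fit, and their median log2 fold change was 0.24 in NB4 and 0.10 in Kasumi-1. Of 12 death effectors and their inhibitors 1 was called in NB4 with the block, BIRC3, an inhibitor of apoptosis and an NF-κB target gene, which went from 0.669, 0.0830 and 0.639 FPKM to 1.42, 0.181 and 1.397 FPKM (log2 fold change 0.87, limma adjusted p = 0.447 without the block and 0.00730 with it). Of 10 ubiquitin editors 1 was called in NB4 with the block, CYLD, a deubiquitinase that restrains NF-κB, which went from 7.47, 3.05 and 6.14 FPKM to 11.6, 5.64 and 12.0 FPKM (log2 fold change 0.82, limma adjusted p = 0.182 and 3.48e-04). None of the 11 death effectors and 10 ubiquitin editors tested in Kasumi-1 was called.

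Of 7 sheddases and their partners, which release TNF and its receptors from the membrane, 6 were tested in NB4. Without the block 1 was called, beside 1.56% of all genes, and with it 2, beside 6.21%. SPPL2A, an intramembrane protease that cleaves the TNF stub, rose from 3.06, 2.48 and 2.91 FPKM to 5.15, 4.03 and 5.38 FPKM (log2 fold change 0.76, SE 0.14, limma adjusted p = 0.0399). RHBDF1, a partner of the TNF sheddase ADAM17, was called with the block (log2 fold change 0.83, limma adjusted p = 0.118 and 0.0442) at means of 0.147 and 0.320 FPKM. With block and median centring SPPL2A was at 0.54 (limma adjusted p = 0.00821), below the fold minimum, and none of the sheddases and partners was called. None of the 5 tested in Kasumi-1 was called.

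In NB4 the TNF-induced genes had the largest median log2 fold change of the 7 lists, 1.01 beside 0.18 for all genes, and in Kasumi-1 it was 0.20 beside 0.05. This list was chosen with earlier results of these data known, and the study itself had named CXCL8, IL1B, CCL2 and CXCL1, so its rank is a description. In NB4 none of 13 was called without the block and 9 were called higher with it, beside 5.06% of all genes. With block and median centring 6 were called higher (1.6% of all genes), and 8 without the samples numbered 2 (4.61% of all genes in either direction). In Kasumi-1 none of 11 was called without the block and 2 with it (0.617% of all genes). CXCL8 measured 8.19, 1.67 and 7.69 FPKM in NB4 controls and 29.5, 7.20 and 27.8 FPKM with OGP46 (log2 fold change 1.91, limma adjusted p = 0.121 and 4.71e-07 with the block). IL1B, the cytokine interleukin-1 beta, rose by 1.97 on the log2 scale with the block (limma adjusted p = 0.0817 without and 3.27e-06 with it), CCL2, a monocyte chemokine, by 1.22 (limma adjusted p = 0.0702 and 4.24e-05) and NFKB2 by 1.03 (limma adjusted p = 0.297 and 1.71e-04). In Kasumi-1 CXCL8 measured 0.788, 1.53 and 3.41 FPKM in the controls and 3.67, 3.70 and 7.002 FPKM with OGP46 (log2 fold change 1.44, limma adjusted p = 0.164 and 0.00505 with the block). CXCL1, a related chemokine, was called there too with the block (log2 fold change 1.00, limma adjusted p = 0.0647 and 0.00759). Whether TNF had a part in the change of these genes in either line was not tested.

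Summed over the family, the 18 ligands came to 88.8, 45.5 and 82.2 FPKM in NB4 controls and 124.0, 67.2 and 140.2 FPKM with OGP46, of which the 5 ligands followed here made 65.0 to 79.0%. In Kasumi-1 the ligand sums were 40.3, 46.8 and 37.8 FPKM and 36.8, 36.0 and 30.9 FPKM, with 95.8 to 97.2% from the 5 ligands. The 29 receptors summed to 95.6, 90.3 and 92.6 FPKM in NB4 controls and 118.0, 114.3 and 115.8 FPKM with OGP46, without overlap. In Kasumi-1 they summed to 104.9, 119.5 and 112.8 FPKM and 99.6, 107.6 and 111.4 FPKM. The receptor total of NB4 thus varied far less between samples than its ligand total, and the sums are given with no test.

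Over the 12 samples, the genes whose pattern was most like that of TNF were AHNAK, GRIN2D and CD70, with root mean square differences of 0.42, 0.42 and 0.42 in centred log2(FPKM + 0.1), beside an SD of 3.56 for TNF itself. CD70 is itself a ligand of the superfamily. For TNFSF9 they were SOWAHC, MMP14 and RHPN2 (0.34 to 0.36), for TNFSF10 GBP2, BHLHE41 and SNX20 (0.21) and for TNFRSF10B FRY, SLC35G2 and CAMSAP2 (0.15 to 0.17). For TNFSF13 they were MSRB1, VPS35L and CARD9, for TNFSF13B ADAMTS1, ADGRD1 and RTL10 and for TNFRSF1B PTPN6, NT5DC2 and AGRN, at 0.13 to 0.19. The 12 samples share 2 cell lines, so a gene that differs between the lines by a like amount comes out as alike. TNFRSF1A, TNFRSF10A and TNFRSF21 had an SD below 0.5 and were left out of this comparison.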

How the data were processed

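The authors deposited 1 FPKM value per gene symbol for each of the 12 samples, the study's methods name poly(A) selection, and per the labels a stranded kit was used. The submitters' processing notes name Trimmomatic, HISAT2, Cufflinks, HTSeq and hg38, with no versions, and the annotation and the use of strand are not given in the sources used here. FPKM is already divided by exon length and mapped fragments. Depth is unknown, so no counting interval or floor is given, and precision rests on 3 samples per group. The labels and the methods give 48 h of incubation, and a figure legend of the study gives a longer time.

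Each file had 20030 rows, of which 27 were dropped because a spreadsheet date stood in place of the symbol, and samples were joined by symbol. In R 4.3.3, limma 3.58.1 (eBayes with trend) was fitted to log2(FPKM + 0.1) for genes whose mean in the fit reached 0.1 FPKM, as checked on simulated data. The threshold of adjusted p and fold follows the study's methods. Within each line, same-numbered samples deviated together. Pearson r of deviations from group means across genes was 0.35, 0.62 and 0.20 in NB4 and 0.22, 0.16 and 0.40 in Kasumi-1. In NB4, control 1 with OGP46 3 (r 0.22) and control 3 with OGP46 1 (r 0.18) also deviated together. Both values lie near the 0.20 of number 3. The values thus set NB4 number 2 apart but do not show that samples 1 and 3 are paired by number. In Kasumi-1 the highest r between different numbers was 0.10. The numbers were still taken to pair the samples, and the replicate block is given beside each result. Between the lines same-numbered samples did not deviate together (r −0.05, 0.02 and −0.00). Alternatives were other pseudocounts, filters, scalings and moderation, a joint fit, leaving out samples and subtracting Kasumi-1 signal from NB4.

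The 10 genes and the 7 pathway and 8 marker lists were chosen with earlier results of these data known. Genes outside the 10 are named if called in either fit, at most 4 per list, and TNFRSF10D, which was not called, is named beside TNFRSF10C. The genes most like a member are the 3 with the smallest root mean square difference among 12308 genes. Promoter windows are from RefSeq.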

Additional observations from a re-analysis of the deposited data

Results flagged for a closer look

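Of the 10 genes, 3 were flagged for their response to OGP46 in the 2 lines. TNF and TNFRSF10B passed the test of the difference with the replicate block, beside 1.5% of all genes, and TNFRSF1A was flagged only by the direction of its pairs. Higher in all 3 NB4 pairs held for 52.9% of all genes tested, and lower in all 3 Kasumi-1 pairs for 13.8%. The share of genes with both was not counted. TNF differed by 0.96 on the log2 scale (NB4 minus Kasumi-1), with a limma adjusted p of 0.0209 with the block and 0.567 without it, and its 3 NB4 pairs went up while its 3 Kasumi-1 pairs went down. TNFRSF10B differed by 0.72, with a limma adjusted p of 0.0358 with the block and 0.395 without it. TNFRSF1A, up in all 3 NB4 pairs and down in all 3 Kasumi-1 pairs, differed by 0.32, and this difference did not pass the test (limma adjusted p = 0.357 without and 0.0709 with the block). Under rescaling the NB4 log2 fold change of TNFRSF1A fell to between −0.10 and −0.01.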

How the results depend on the processing

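Of 825 values of the 10 genes under an alternative setting, 766 kept their direction and their side of the threshold. In NB4, where 183 genes and 1 of the 10 were called, the counts were 117 genes at a pseudocount of 1, 6 genes and 0 of the 10 with no filter, 4 and 0 with no trend, 498 and 2 in the joint fit, and 0 and 0 with equal FPKM sums, median centring or quantile normalization. Leaving out 1 sample gave 0 to 396 genes and 0 to 3 of the 10. The highest counts came without NB4 OGP46 sample 2 (TNFSF9, TNFSF10 and TNFRSF10B), and leaving out any other NB4 sample took the call from TNFSF9, at 1.07 to 1.22 on the log2 scale. The replicate block gave 730 genes and 4 of the 10, and 452 and 3 with equal FPKM sums, 391 and 1 with median centring and 397 and 1 with quantile normalization, with 81.5%, 68.6%, 48.1% and 54.9% of calls higher. Without both samples numbered 2 the counts were 543 and 4. In Kasumi-1, with 4 genes and 0 of the 10, the counts of genes were 2 (pseudocount 1), 1 (no filter), 24 (minimum mean of 1 FPKM), 18 (equal FPKM sums), 18 (median centring), 11 (quantile normalization), 0 (no trend), 1 (joint fit), 73 (block), 98, 93 and 81 (block with these 3 scalings in the same order) and 0 to 11 without 1 sample, and none of the 10 that was tested was called under any of them (6 were tested at a minimum mean of 1 FPKM, which left out TNF, TNFSF9, TNFSF10 and TNFSF13). For the difference between the lines, with 0 genes called, they were 12 (pseudocount 1), 5 (no filter), 0 to 1 (without 1 sample), 185 with 2 of the 10 (block), 75 with 1 (block, equal FPKM sums) and 81 with 1 (block, median centring). Between the controls of the lines the block called 6466 genes in place of 6449 and changed none of the calls of the 10.

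Some signs turned. In NB4, TNFRSF1A was at −0.0065 with equal FPKM sums, −0.10 with median centring and −0.031 with quantile normalization, and TNFRSF21 at −0.013, −0.11 and −0.10, each the same with the block. In Kasumi-1, TNFRSF10B was at −0.023 with median centring and −0.025 with quantile normalization, with or without the block. Leaving out 1 sample gave −0.22 to 0.013 for TNFSF13B and −0.0037 to 0.28 for TNFRSF21 in NB4, and −0.68 to 0.038 for TNF, −0.015 to 0.42 for TNFSF13 and −0.040 to 0.17 for TNFRSF10B in Kasumi-1. In the difference between the lines TNFSF13 was at −1e-04 (median centring, with or without the block), −0.032 (quantile normalization) and −0.092 to 0.35 without 1 sample, and TNFRSF10A at −3e-04 (quantile normalization). The causes were not tested. With unknown depth, the values of TNF, TNFSF9 and TNFSF13 in Kasumi-1, all below 1 FPKM, are the least certain.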
